A study of Mus musculus with 12 samples.

Results

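The interferon regulatory factor (IRF) family was described as 8 genes, Irf1, Irf2, Irf3, Irf4, Irf5, Irf7, Irf8 and Irf9, taken by symbol from a count table of 26609 genes. All 8 passed the filter on low counts, which kept 13692 genes. RNA was sequenced from regulatory T cells (Tregs), the CD4+ T cells that restrain immune responses, sorted as CD25hi CD127lo singlets from mesenteric lymph nodes, which drain the gut, of untreated SAMP/YitFC mice. This inbred strain develops ileitis without a trigger. The labels call the cells intestinal. There were 3 libraries in each of 4 titled groups. KO female and KO male mice were SAMP/YitFC-ERb-KO, which by the series design lack ESR2, the estrogen receptor beta, in the whole body. WT female and WT male mice were SAMP/YitFC-WT. The sources used here give neither ages nor the deleted part of Esr2. They do not tie libraries to single mice either, so every p-value reflects library-to-library spread, which may be technical.

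IRF proteins are transcription factors that share an N-terminal DNA-binding domain and recognise GAAA-containing elements called interferon-stimulated response elements (ISREs). IRF3, IRF5 and IRF7 are activated by phosphorylation downstream of receptors for microbial nucleic acids and drive interferon genes. IRF9 joins STAT2 in the complex that carries the type I interferon signal to the nucleus, and Irf7 is itself one of the genes induced by that complex. IRF1 and IRF2 bind the same elements with mostly opposite effects. IRF4 and IRF8 act in lymphoid and myeloid lineages, and IRF4 with the AP-1 factor BATF is required for effector Tregs.

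The promoters of Irf7 and Irf9 are shown because the transcripts of these 2 genes varied together over the libraries, and those of Irf1 and Irf2 because they hold matches to interferon-related motifs. Each runs from 250 bases before to 50 after a RefSeq transcription start on GRCm38.p6, read 5′ to 3′ along the gene, in lower case with motif matches in capitals. The motifs searched on both strands were an ISRE core, GAAA followed by any 2 bases and GAAA, and a STAT-type element (GAS), TTC followed by any 3 bases and GAA, which reads the same on both strands.
Irf7, chr7:141266375-141266674, minus strand: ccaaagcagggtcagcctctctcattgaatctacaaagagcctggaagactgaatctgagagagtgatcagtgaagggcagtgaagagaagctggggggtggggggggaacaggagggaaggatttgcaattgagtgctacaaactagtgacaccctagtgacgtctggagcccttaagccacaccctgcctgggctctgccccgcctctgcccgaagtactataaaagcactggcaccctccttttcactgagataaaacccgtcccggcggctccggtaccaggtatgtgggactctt
Irf9, chr14:55603735-55604034, plus strand: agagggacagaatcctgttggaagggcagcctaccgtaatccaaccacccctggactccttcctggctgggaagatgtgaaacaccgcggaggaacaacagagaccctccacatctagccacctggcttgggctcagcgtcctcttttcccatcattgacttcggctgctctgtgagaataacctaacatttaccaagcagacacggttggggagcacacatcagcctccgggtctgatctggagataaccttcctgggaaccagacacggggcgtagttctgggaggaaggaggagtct
Irf1, chr11:53769764-53770063, plus strand: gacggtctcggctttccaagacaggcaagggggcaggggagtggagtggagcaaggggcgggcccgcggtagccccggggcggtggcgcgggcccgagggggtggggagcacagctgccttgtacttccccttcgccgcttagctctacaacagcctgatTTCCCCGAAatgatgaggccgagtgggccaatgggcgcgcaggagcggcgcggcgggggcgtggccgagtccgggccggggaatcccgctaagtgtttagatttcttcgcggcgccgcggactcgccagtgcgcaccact
Irf2, chr8:46739495-46739794, plus strand: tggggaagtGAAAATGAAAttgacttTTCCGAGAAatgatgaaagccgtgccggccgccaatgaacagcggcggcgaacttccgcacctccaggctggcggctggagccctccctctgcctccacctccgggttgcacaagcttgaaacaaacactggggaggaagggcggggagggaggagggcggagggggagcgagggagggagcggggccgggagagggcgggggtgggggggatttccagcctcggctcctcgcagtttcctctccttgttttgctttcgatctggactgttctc
Of 32851 promoter windows of 300 bases, 3.44% held the ISRE core and 8.3% the GAS letters. Irf2 held 1 ISRE core at -241 to -232 and 1 GAS match at -224 to -216 from the start, and the matches did not overlap. Irf1 held 1 GAS match at -90 to -82, and the first of 2 Irf8 windows held 2 GAS matches at -171 to -163 and -153 to -145. The Irf7 window and both Irf9 windows held neither set of letters. The windows of Irf3, Irf4 and Irf5 and the second windows of Irf1 and Irf8 held none either. Only these exact letters in these windows were searched, so elements with other letters or elsewhere in or near the genes were not looked for.

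Total counts were 11.1 to 14.8 M in KO females, 10.2 to 14.1 M in KO males, 13.4 to 15.1 M in WT females and 14.5 to 16.7 M in WT males, so the KO libraries were on average shallower. Foxp3, the Treg lineage factor, lay between 583 and 926 CPM (counts divided by the scaled library size in M) and Il2ra, which encodes CD25, between 521 and 1007 CPM in the 12 libraries. Esr2 ran mostly against the titles, with 94 to 161 counts in 4 of 6 KO libraries (2 and 8 in the other 2) and 0 to 14 counts in 4 of 6 WT libraries (133 and 159 in the other 2). Xist and Y-linked counts were opposite to the titled sex in 4 libraries, KO female 1, KO male 1, KO male 2 and WT female 2. Groups below are those of the titles, every direction rests on those titles, and values for the members are given also without the 4 libraries. That leaves KO female 2, KO female 3 and KO male 3 with 94, 128 and 95 Esr2 counts, so it does not settle the doubt about genotype. KO male 3 is then the only KO male, so male effects and interactions without the 4 libraries rest on it.

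Irf1 was the most abundant of the 8 family transcripts in these Tregs when counts were set against exon length, and Irf2, Irf8, Irf5 and Irf4 were the least abundant, without a firm order among them. As a level per length, Irf1 averaged 132 ± 19.5 CPM per kb of exon, Irf7 56.9 ± 21.9, Irf9 49.7 ± 7.27 and Irf3 42.3 ± 5.33 CPM per kb (SD, n = 12). The other 4 formed a lower tier with levels of 16.8 ± 2.21 CPM per kb for Irf2, 16.8 ± 3.31 for Irf8, 16.2 ± 2.09 for Irf5 and 16.2 ± 3.97 for Irf4. Irf1 exceeded Irf7 and Irf3 exceeded Irf2 in 12 of 12 libraries, and the ranges of neither pair overlapped. The other neighbours in this order changed places between libraries: Irf7 was above Irf9 in 7, Irf9 above Irf3 in 9, Irf2 above Irf8 in 6, Irf8 above Irf5 in 5 and Irf5 above Irf4 in 6 of 12. Exon lengths were the union of GENCODE M21 exons, while the sources used here do not name the annotation behind the counts.

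**Figure D1:**
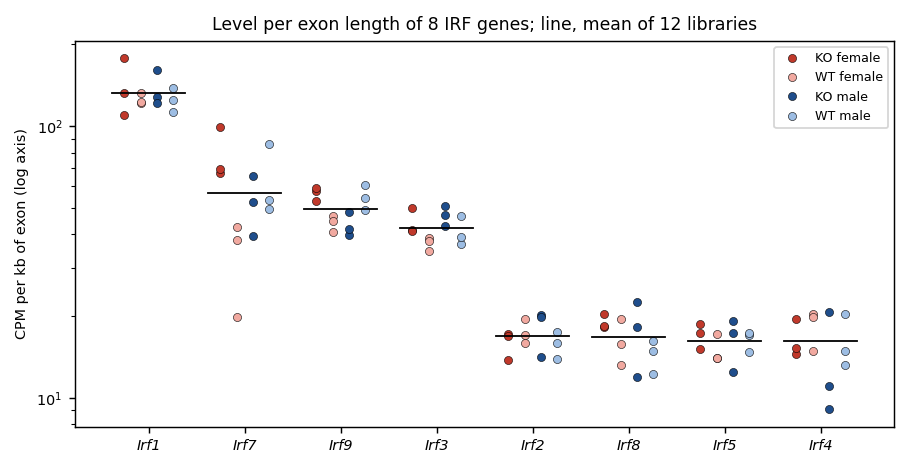
Level of each IRF gene per exon length (y axis, CPM per kb of exon, log axis) in the 12 libraries, with points for libraries coloured by titled group and a line at the mean of 12. Irf1 lies above all others, Irf7, Irf9 and Irf3 form a middle tier, and Irf2, Irf8, Irf5 and Irf4 share a lower tier near 16 to 17 CPM per kb.

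The libraries are not strand-specific by their kit, so reads from exon bases shared with a neighbouring gene cannot be told apart. This touched Irf5 most (chromosome 6, 29526625 to 29541871, GRCm38), which shares 14.1% of its exon bases with Tnpo3 on the other strand. Irf1 (chromosome 11, 53770014 to 53778374) shares 3.40% with Gm17334, Irf3 (chromosome 7, 44997648 to 45002848) 2.56% with Bcl2l12, Irf9 (chromosome 14, 55603571 to 55610030) 2.28% with Rnf31 and Irf7 (chromosome 7, 141262706 to 141266481) 1.19% with Phrf1. Irf2 (chromosome 8, 46739732 to 46847458), Irf4 (chromosome 13, 30749226 to 30766976) and Irf8 (chromosome 8, 120736358 to 120756694) share none.

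None of the 8 genes passed in KO against WT libraries, whether in females, in males or averaged over the sexes. Averaged over the sexes, 7 of 8 log2 fold changes were positive, with a median of 0.11 beside 0.02 over all 13692 genes, and Irf4 was the negative one. With edgeR's quasi-likelihood test and Benjamini-Hochberg adjustment at 0.05, 0 of 8 passed in each of these 3 comparisons, where 1.50% of all genes passed for the average (0.606% higher, 0.898% lower), 0% in females and 0.0730% in males (0.0584% higher, 0.0146% lower). At an unadjusted p under 0.05 there were 2 of 8 for the average, 2 of 8 in females and 1 of 8 in males, against 15.9%, 7.71% and 14.2% of all genes. DESeq2 called 0 for the average, 1 in females (Irf7) and 0 in males, and limma on the deposited log2 values called 0 in all 3.

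**Figure D2:**
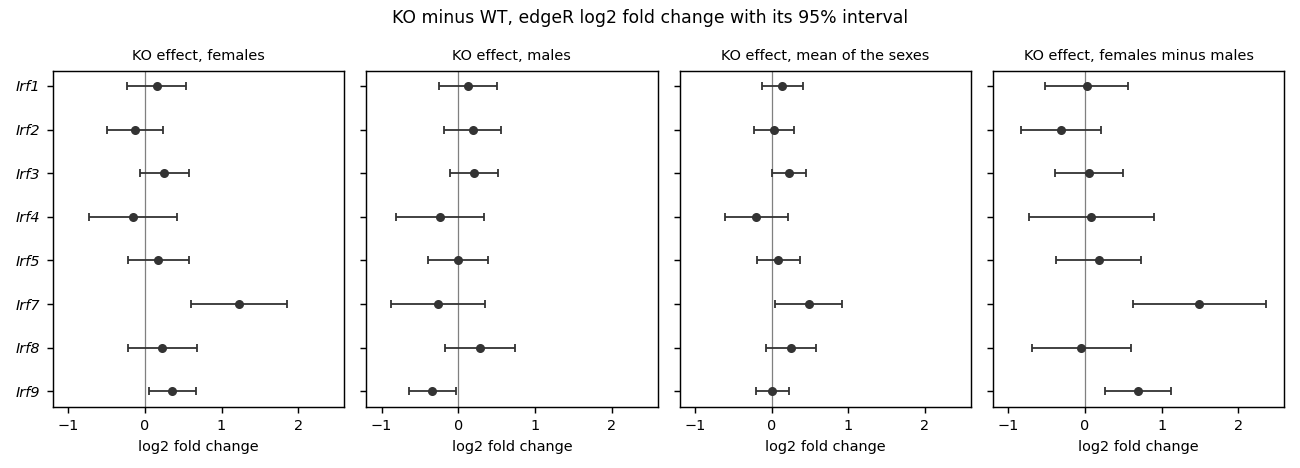
KO minus WT log2 fold change of each gene (x axis, edgeR; points with 95% intervals, not adjusted for the number of genes) in females, in males, averaged over the sexes, and as the female effect minus the male effect. Irf7 at 1.23 in females and 1.49 for the difference between the sexes lies farthest from 0, and the intervals of Irf9 in females and males lie on opposite sides of 0.

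Irf7, the interferon-inducible amplifier of the type I response, was the most variable member and the one with the largest difference between titled groups. It had 253, 264 and 374 CPM in KO females 1, 2 and 3, against 161, 75.0 and 144 CPM in WT females 1, 2 and 3. All 3 KO females lay above all 3 WT females, with WT female 2 lowest of the 12 libraries and KO female 3 highest. It had 247, 149 and 198 CPM in KO males 1, 2 and 3, against 188, 324 and 202 CPM in WT males 1, 2 and 3, and here the groups overlapped. The log2 fold change for KO minus WT was 1.23 in females (SE 0.29, 95% interval 0.61 to 1.85, unadjusted p = 0.000748, edgeR adjusted p = 0.459), a 2.34-fold higher level that did not pass the adjustment over all genes. In males it was -0.27 (SE 0.29, 95% interval -0.88 to 0.35, adjusted p = 0.716). DESeq2 gave 1.24 with an adjusted p of 0.026 in females, and over all 19 alternatives the adjusted p there ran from 3.14e-06 to 0.965. Libraries were also grouped by more Xist or more Y-linked counts, whatever their title. With more Xist, Irf7 ran from 149 to 374 CPM in KO and from 144 to 161 CPM in WT. With more Y-linked counts it had 198 and 253 CPM in KO and 75.0 to 324 CPM in WT. The lack of overlap in females thus holds for the titled groups only.

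The difference of the Irf7 effect between the sexes was tested by the interaction. It was 1.49 on the log2 scale (SE 0.41, 95% interval 0.62 to 2.36), with an unadjusted p of 0.00232 and an edgeR adjusted p of 0.90, and it was positive in 19 of 19 alternatives, from 1.20 to 1.70. With those 4 sex-discordant libraries removed it was 1.34 (SE 0.42, adjusted p = 0.316), and the female effect was 1.05. Leaving out WT female 2 alone gave a female effect of 0.96, and leaving out WT male 2 turned the male effect to 0.02.

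Irf9, the DNA-binding partner of STAT2, lay on opposite sides in the titled sexes without overlap in either, while for Irf7 the males overlapped. It had 285, 311 and 318 CPM in KO females 1, 2 and 3, against 252, 220 and 241 CPM in WT females 1, 2 and 3, so every KO female lay above every WT female. It had 260, 215 and 225 CPM in KO males 1, 2 and 3, against 265, 328 and 292 CPM in WT males 1, 2 and 3, so every KO male lay below every WT male, with KO male 1 and WT male 1 close together. The log2 fold change was 0.36 in females (SE 0.14, 95% interval 0.05 to 0.66, edgeR adjusted p = 0.585) and -0.34 in males (SE 0.14, 95% interval -0.64 to -0.03, adjusted p = 0.303). The interaction was 0.70 (SE 0.20, edgeR unadjusted p = 0.00355, adjusted p = 0.90). It was 0.76 without the 4 libraries, with KO male 3 the only KO male left. Averaged over the sexes Irf9 was at 0.01 (95% interval -0.20 to 0.22), and at -0.04 without the 4 libraries.

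Lack of overlap was common among all genes in comparisons of 3 against 3. In females 3 of 8 members, Irf3, Irf7 and Irf9, were higher in every KO than in any WT library, where 9.20% of all genes were, and 0 of 8 were lower, where 11.8% were. In males 1 of 8, Irf9, was lower in every KO library, where 7.45% were, and 0 of 8 were higher, where 6.95% were. No member was free of overlap with 6 KO against 6 WT libraries, where 2.40% of all genes were (0.971% higher, 1.43% lower).

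**Figure D3:**
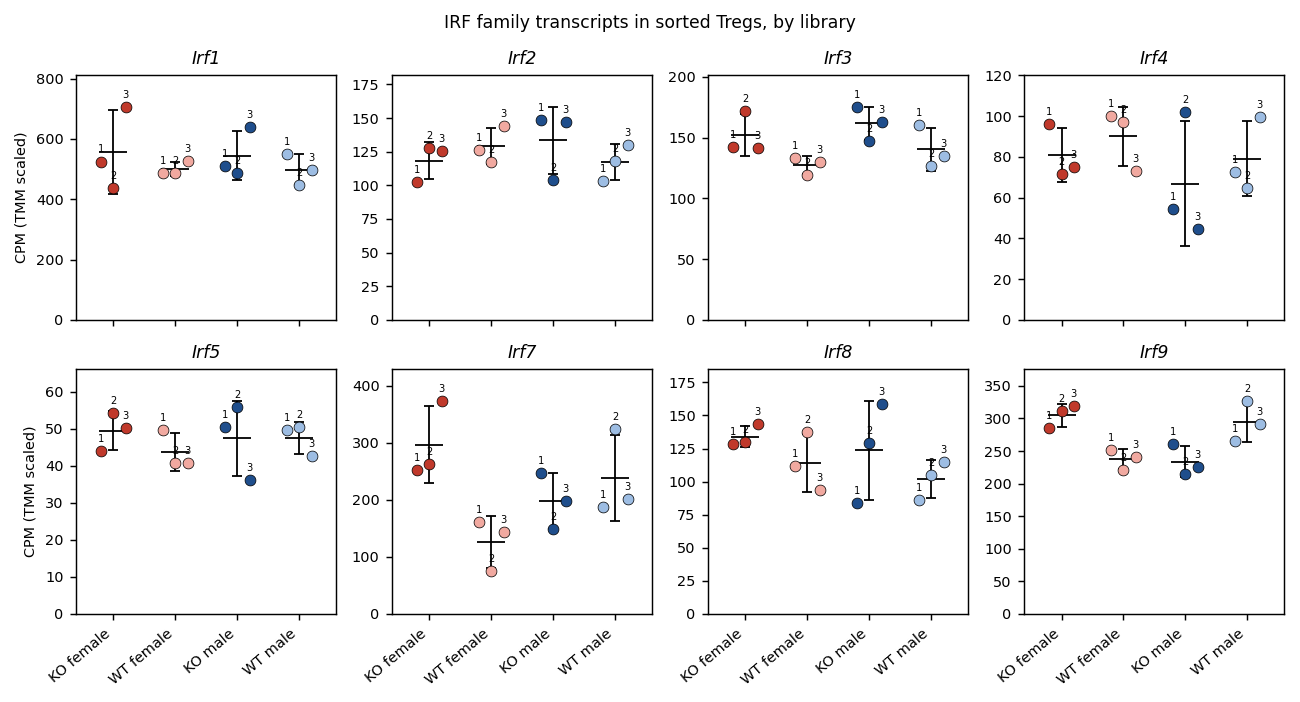
CPM of each IRF gene (y axis, linear from 0) in every library, by titled group; points are libraries numbered by replicate, and bars are the mean with SD of 3. Irf3, Irf7 and Irf9 are higher in KO than in WT females without overlap, and Irf9 is lower in KO than in WT males. The KO and WT groups of Irf1, Irf2, Irf4, Irf5 and Irf8 overlap in both titled sexes.

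Female against male libraries were compared within each genotype, and these comparisons share their libraries with the ones above. In KO libraries Irf7 and Irf9 were higher in all 3 females than in any male, by 0.58 (SE 0.29) and 0.39 (SE 0.14) on the log2 scale. In WT libraries both were lower in all 3 females than in any male, with log2 fold changes of -0.91 (SE 0.29, 95% interval -1.52 to -0.29) for Irf7 and -0.31 (SE 0.14) for Irf9. With edgeR the adjusted p were 0.849 for both genes in KO and 0.718 for both in WT, and 0 of 8 members passed in either genotype or in the interaction, where 0% of all genes passed. Unadjusted, 1 of 8 in KO, 2 of 8 in WT and 2 of 8 for the interaction were under 0.05, against 5.27%, 6.52% and 4.81% of all genes. DESeq2 and limma also called 0 of 8 in these 3 comparisons. Groups without overlap were 2 of 8 higher in KO females and 2 of 8 lower in WT females, beside 3.64% and 8.13% of all genes. Of the members 0 of 8 were lower in KO females and 0 of 8 higher in WT females, beside 3.35% and 7.55%. Without the 4 sex-discordant libraries Irf7 was at 0.71 and Irf9 at 0.51 in KO, with KO male 3 the only KO male. In WT they were at -0.63 and -0.25. Grouped instead by more Xist or more Y-linked counts, both genes overlapped between the sexes in KO and in WT. The lack of overlap between females and males thus holds for the titled groups only.

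The transcripts of Irf7 and Irf9 varied together and with those of interferon-stimulated genes (ISGs). Over the 12 libraries Irf7 and Irf9 had Pearson's r = 0.82 and Spearman's rho = 0.88 on log2(CPM + 1), with permutation p of 0.00066 and 0.00041 (adjusted 0.0148 and 0.0156 over 76 relations computed). Without the 2 libraries farthest from the median of Irf7 r was 0.81, without the 4 libraries against their titled sex it was 0.83, and after subtracting the mean of each titled group it was 0.86. Of the 28 pairs of members this was the one pair that passed, and 14 of the 28 had a positive r. Irf4 and Irf2 gave the most negative r, -0.61 (rho = -0.46, permutation p = 0.0381 and 0.135, adjusted 0.322 and 0.719).

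The summed level of 31 ISGs followed both genes. The sum was 5002, 4844 and 6863 CPM in KO females 1, 2 and 3, against 4471, 3434 and 4644 CPM in WT females 1, 2 and 3. It was 4566, 3880 and 4924 CPM in KO males 1, 2 and 3, against 4562, 5761 and 5155 CPM in WT males 1, 2 and 3. KO female 3 was highest and WT female 2 lowest, as for Irf7. With this sum Irf7 had r = 0.89 and rho = 0.83 (permutation p = 0.00017 and 0.00162, adjusted 0.00646 and 0.041) and Irf9 r = 0.80 and rho = 0.80 (permutation p = 0.00078 and 0.00298, adjusted 0.0148 and 0.0496). Without the 2 libraries at the ends of the sum r was 0.74 for Irf7 and 0.77 for Irf9, and without the 4 libraries it was 0.88 and 0.66. For the other 6 members r with the sum did not pass. The sum was dominated by Samhd1 (20.9%) and Igtp (15.9%), so single ISGs were also compared. This step was added after seeing the data and was not repeated without WT female 2 and KO female 3. Of 30 ISGs averaging at least 5 CPM, 18 had r over 0.7 with Irf7 and 18 with Irf9, against 0.595% and 0.486% of all genes of that level, and the median r was 0.82 for Irf7 and 0.72 for Irf9. The median lay between -0.25 for Irf4 and 0.31 for Irf5 among the other 6 members, with 1 ISG over 0.7 for Irf2 and 0 for the rest.

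**Figure D4:**
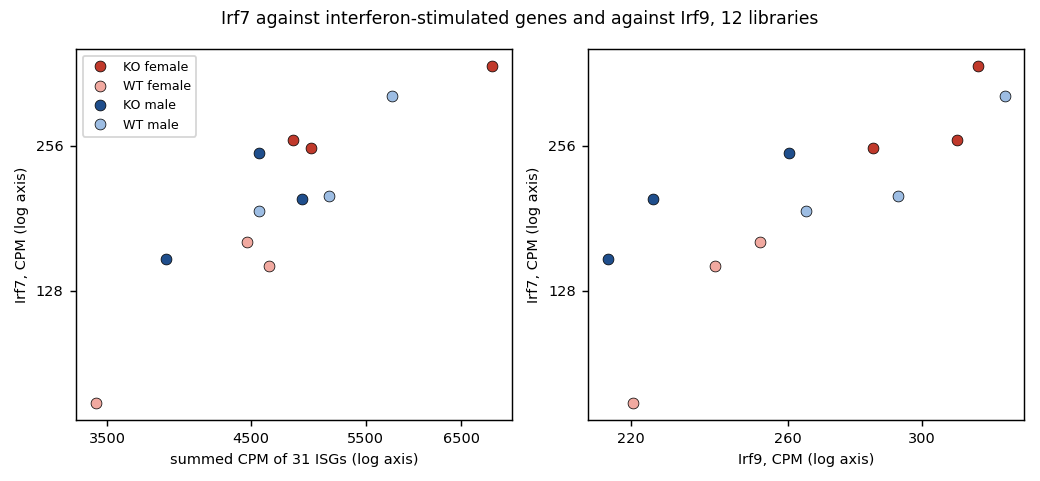
Irf7 level (y axes, CPM, log axis) against the summed CPM of 31 ISGs (left, log axis) and against Irf9 (right, CPM, log axis); points are the 12 libraries, coloured by titled group. Irf7 increases with both measures (r = 0.89 and 0.82), from WT female 2 at 75.0 CPM to KO female 3 at 374 CPM.

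Most ISG log2 fold changes for KO minus WT were positive in females and negative in males, and none of the 31 passed in the filtered edgeR fit in any of the 6 comparisons. Without the filter on low counts edgeR called 14 of 31 higher in females, 5 lower in males, 3 higher for the average, 3 higher in KO female minus male, 10 lower in WT female minus male and 11 higher for the interaction. DESeq2 called 1 higher in females, 1 lower in males, 1 higher for the interaction and 0 in the other 3 comparisons, and limma called 0 in all 6. In females 29 of 31 log2 fold changes for KO minus WT were positive with a median of 0.77, in males 5 of 31 were positive with a median of -0.37, and averaged over the sexes 21 of 31 were positive with a median of 0.14. The medians over all genes were 0.01, 0.01 and 0.02. Unadjusted, 15 of 31 in females, 6 of 31 in males and 2 of 31 for the average were under 0.05, where 7.71%, 14.2% and 15.9% of all genes were. The male share was thus near that of all genes. Without WT male 2 the male median was -0.22, with 9 of 31 positive and 2 under an unadjusted 0.05, and without KO male 1 it was -0.61. Without WT female 2 the female median was 0.46 with 10 of 31 under 0.05, without KO female 3 it was 0.47, and the median for the average was -0.02 without WT female 2 and 0.01 without KO female 3. For the interaction 30 of 31 were positive, with a median of 1.11 and 20 of 31 under an unadjusted 0.05. Bst2, a membrane protein that tethers virions, and Oas2, a 2′-5′ oligoadenylate synthetase, had the smallest p for the average. Bst2 levels were 66.7 ± 12.8 CPM in KO libraries and 48.1 ± 18.9 CPM in WT libraries, and those of Oas2 33.8 ± 18.5 CPM in KO libraries and 15.3 ± 9.41 CPM in WT libraries (SD, n = 6). Without the 4 libraries 26 of 31 were positive in females (median 0.54), 4 of 31 in males (median -0.52) and 15 of 31 for the average (median -0.02). The log2 fold changes of Bst2 and Oas2 for the average were 0.51 (SE 0.18) and 1.16 (SE 0.43), with edgeR adjusted p of 0.172 and 0.192.

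Of the 6 genes whose levels most resembled Irf7 and Irf9 over the 12 libraries, 3 (Oasl2, Ifit3 and Rtp4) were in the ISG list. By Pearson's r among 10086 genes averaging at least 5 CPM, the 3 nearest to Irf7 were Oasl2 (r = 0.96), Lgals3bp (0.96) and Ifit3 (0.95), and the 3 nearest to Irf9 were Ube2l6 (0.95), which encodes the conjugating enzyme for ISG15, Pydc3 (0.95) and Rtp4 (0.90). These were picked as the highest of many, so they carry no test. Ifit3, an antiviral tetratricopeptide protein, had 76.7, 75.4 and 149 CPM in KO females and 42.1, 6.1 and 52.2 CPM in WT females 1, 2 and 3. It had 105, 29.5 and 43.4 CPM in KO males and 67.0, 160 and 59.9 CPM in WT males 1, 2 and 3, so the males overlapped while the females did not.

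**Figure D5:**
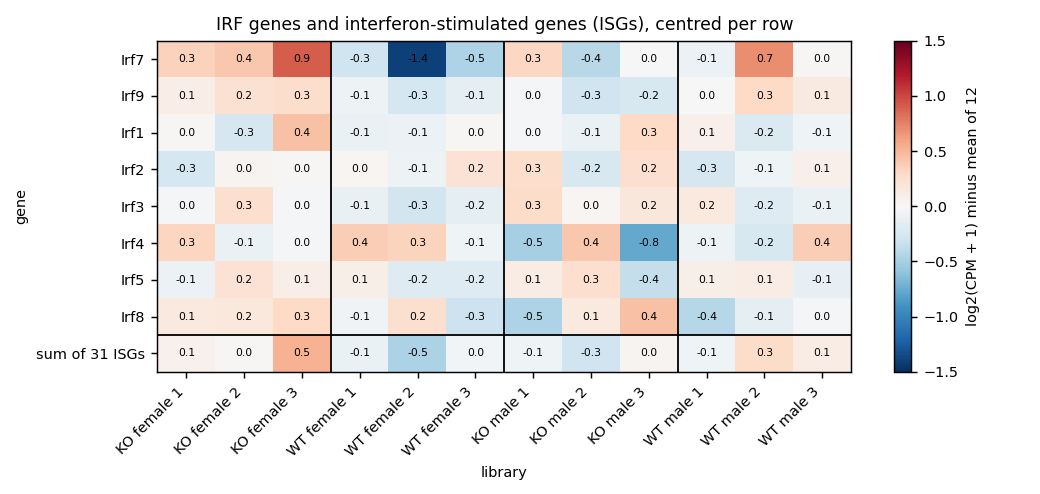
Log2(CPM + 1) of each IRF gene (rows) and of the summed ISGs (bottom row), with the row mean of the 12 libraries subtracted; columns are single libraries by titled group, red higher and blue lower than the row mean. Irf7 and the ISG row are low in WT female 2 and KO male 2 and high in KO female 3 and WT male 2, and Irf4 has its lowest values in KO male 1 and KO male 3.

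The other sensor-activated members, Irf3 and Irf5, differed little. Irf3, the constitutively expressed factor that is activated downstream of STING and MAVS, had 143, 172 and 141 CPM in KO females and 133, 119 and 130 CPM in WT females 1, 2 and 3, and all KO females were higher. It had 175, 148 and 163 CPM in KO males and 160, 127 and 135 CPM in WT males 1, 2 and 3, with 1 WT male inside the KO range. Averaged over the sexes its log2 fold change was 0.23 (SE 0.10, 95% interval 0.01 to 0.45, unadjusted p = 0.0452, edgeR adjusted p = 0.299), and it was positive in 19 of 19 alternatives, from 0.17 to 0.28, with 0.21 without the 4 libraries. Irf5, which acts below endosomal Toll-like receptors, had a mean of 48.5 ± 7.34 CPM in 6 KO libraries and 45.7 ± 4.71 CPM in 6 WT libraries (SD), with a log2 fold change of 0.09 (95% interval -0.19 to 0.37, adjusted p = 0.797). Without the 4 libraries its direction turned, to -0.11 for the average, and the male effect was -0.42, where KO male 3 was the one KO male left. Its lowest value of the 12 was 36.1 CPM in KO male 3 and its highest 55.8 CPM in KO male 2.

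Irf1 and Irf2, the activator and repressor of shared targets, also did not differ beyond the spread of the libraries. The Irf1 mean was 550.2 ± 102 CPM in KO libraries and 499 ± 35.5 CPM in WT libraries (SD, n = 6), with a log2 fold change of 0.14 (95% interval -0.13 to 0.41, edgeR adjusted p = 0.637). It was 0.25 without the 4 libraries and 0.03 without KO female 3, which also turned the female effect to -0.06. The KO libraries spread from 436 CPM in KO female 2 to 707 CPM in KO female 3 and enclosed all 6 WT libraries. The Irf2 mean was 126 ± 19.95 CPM in KO libraries and 123 ± 13.7 CPM in WT libraries, with a log2 fold change of 0.03 (95% interval -0.23 to 0.29, adjusted p = 0.932), and its sign for the average was kept in 13 of 19 alternatives, with 0.10 without the 4 libraries. Over the 12 libraries the coefficient of variation was 14.7% for Irf1 and 13.1% for Irf2, below the median of 20.2% over the 10086 genes averaging at least 5 CPM, while that of Irf7 was 38.5% and was exceeded by 7.61% of those genes.

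Irf4, the factor of effector Treg differentiation, was lowest in 2 KO males but not in KO libraries as a group. It had 96.1, 71.4 and 75.1 CPM in KO females and 99.9, 97.1 and 73.2 CPM in WT females 1, 2 and 3. It had 54.3, 102 and 44.6 CPM in KO males and 72.7, 64.7 and 99.8 CPM in WT males 1, 2 and 3, so KO males held both the highest and the lowest value of the 12 libraries. For the average the Irf4 log2 fold change was -0.20 (SE 0.19, 95% interval -0.60 to 0.21, edgeR adjusted p = 0.658), and -0.55 (adjusted p = 0.171) without the 4 libraries. Of 16 genes listed as IRF4-dependent effector Treg genes, 1 fell for the average, 0 rose and 15 did not pass, with 5 of 16 positive and a median of -0.19. The one that fell was Prdm1, the repressor Blimp-1, with 56.7 ± 9.15 CPM in KO and 97.6 ± 27.7 CPM in WT libraries (log2 fold change -0.78, SE 0.18, adjusted p = 0.0424). That call was lost in 8 of the 12 fits without 1 library (KO female 1 or 3, KO male 3, WT female 1, 2 or 3, WT male 2 or 3), with adjusted p up to 0.128, and without the 4 libraries (-1.10, adjusted p = 0.0678). It is also in the list of plasma cell genes.

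Irf8, which guides dendritic cells, monocytes and B cells and is also expressed in T cells, had 129, 130 and 143 CPM in KO females and 112, 137 and 93.6 CPM in WT females 1, 2 and 3. It had 84.0, 129 and 158 CPM in KO males and 86.1, 105 and 115 CPM in WT males 1, 2 and 3, and the groups overlapped in both sexes. The log2 fold change for the average was 0.25 (SE 0.15, 95% interval -0.07 to 0.58, edgeR adjusted p = 0.447). Without the 4 libraries it was 0.51, with 0.61 in males, where KO male 3 was the only KO male left. With KO male 3 alone left out the average was 0.14. The genes with the most similar levels over the 12 libraries were 2310046O06Rik (r = 0.92), Fgr (0.90) and Espl1 (0.90) for Irf8. For Irf4 they were Gemin4 (0.93), Arhgap1 (0.92) and Ncdn (0.92), for Irf1 Phlpp1 (0.84), Itga7 (0.83) and Ctso (0.83), and for Irf2 Arhgap26 (0.92), Med13 (0.92) and Adcy7 (0.89). For Irf3 they were Rnasek (0.94), Adrm1 (0.91) and Reep4 (0.91), and for Irf5 Tbc1d10c (0.93), Msra (0.92) and Kptn (0.92).

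Upstream and partner genes were counted for the average over the sexes, and none passed. Of 19 genes of interferon receptors and JAK-STAT signalling, 9 were positive with a median of -0.0034, and the smallest p belonged to Stat4 (-0.31, SE 0.11, edgeR adjusted p = 0.178) and the kinase gene Jak2 (-0.36, SE 0.14, adjusted p = 0.222). The Irf9 partner Stat2, named after its values were seen, was at 0.45 (SE 0.19, adjusted p = 0.255). Of 20 tested genes of nucleic acid sensing, 13 were positive with a median of 0.04. Unc93b1, which delivers Toll-like receptors to endosomes, was at 0.52 (SE 0.14, adjusted p = 0.0815), and Tank, an adaptor of the kinases that phosphorylate IRF3 and IRF7, was at -0.35 (SE 0.11, adjusted p = 0.129).

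Of 15 tested partners and cofactors of IRF proteins, 7 were positive with a median of -0.03 for the average, and 0 passed. The corepressor gene Irf2bp1 was at 0.41 (SE 0.12, edgeR adjusted p = 0.103) and Spib, an ETS factor of B cells and plasmacytoid dendritic cells, at 2.60 (SE 0.77, adjusted p = 0.108). Spib had 5.09 ± 4.69 CPM in KO and 1.08 ± 1.22 CPM in WT libraries (SD, n = 6). Of 12 antigen presentation genes, which IRF1 and interferons induce, 10 were positive with a median of 0.16 and 0 passed. Ciita, the master regulator of MHC class II genes, was at 1.60 (SE 0.40, adjusted p = 0.0561) and the peptidase gene Erap1 at -0.35 (SE 0.14, adjusted p = 0.233).

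Markers of other cells in a lymph node sort were summed, since B cells, dendritic cells and monocytes also express IRF genes. In such bulk libraries a different number of cells and a different RNA amount per cell cannot be told apart. B-cell genes summed to 331 ± 101 CPM in KO and 126 ± 84.7 CPM in WT libraries (ranges 223 to 490 and 63.3 to 279, SD, n = 6 each, two-sided exact permutation p = 0.00649, adjusted 0.0455 over 7 lists). For the average 7 of 15 B-cell genes rose and 0 fell, with a median log2 fold change of 1.91, among them Ms4a1 (3.24), Cd22 (2.51) and Cd79a (2.06). In females 0 of 15 passed with a median of 0.91, and in males 3 of 15 passed with a median of 2.75, as Cd22 was at 0.91 in females and 4.11 in males. The median for female minus male was 0.33 in KO and 2.83 in WT libraries, and that of the interaction was -1.91, with 0 of 15 passing in these 3. Without the 4 libraries 1 of 15 passed for the average, with 14 of 15 positive and a median of 1.61, and 3 of 15 passed without WT male 2, WT male 3, WT female 2 or KO female 3. Beside this, Irf8 had r = 0.53 and rho = 0.52 with the B-cell sum (permutation p = 0.0788 and 0.0905, adjusted 0.545 and 0.529), r = 0.60 without the 2 libraries farthest from the median, r = 0.78 without the 4 libraries and r = 0.24 after subtracting titled group means. With the monocyte and macrophage sum it had r = 0.72 and rho = 0.69 (permutation p = 0.0103 and 0.0162, adjusted 0.131 and 0.176), and r = 0.65 without the 2 farthest libraries. The part of these cells in the Irf8 level was not tested.

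Monocyte and macrophage genes summed to 349 ± 95.6 CPM in KO and 266 ± 155 CPM in WT libraries (exact permutation p = 0.167). For the average 11 of 13 were positive with a median of 1.49, and 0 passed. With edgeR 9 of 13 had an unadjusted p under 0.05, where 15.9% of all genes did. Lyz2 made up 46.5% and Ccr2, which T cells also express, 36.6% of this sum, and they lay on opposite sides, with Lyz2 at 1.57 (SE 0.44) and Ccr2 at -0.65 (SE 0.17). Csf1r was at 1.98 (SE 0.48, edgeR adjusted p = 0.0528) and Cd68 at 1.20 (SE 0.29, adjusted p = 0.055). Plasma cell genes summed to 469 ± 32.0 CPM in KO and 483 ± 34.8 CPM in WT libraries (exact permutation p = 0.491). Xbp1 made up 81.1% and Prdm1 16.2% of this sum, so it gives the other plasma cell genes little weight. Jchain was not in the counts under that symbol. Of the 5 tested genes 4 were positive for the average with a median of 0.54, and Derl3 was at 1.70 (SE 0.41, edgeR adjusted p = 0.0531). In that list 2010001M09Rik rose by 4.35 (SE 0.67, adjusted p = 0.0131) and Prdm1 fell, and without the 4 libraries neither passed (adjusted p = 0.0518 and 0.0678). Conventional dendritic cell genes summed to 606 ± 144 CPM in KO and 687 ± 132 CPM in WT libraries (exact permutation p = 0.346), with Flt3 at 1.55 (SE 0.56) and Itgax at 1.25 (SE 0.74), neither passing. In that list 7 of 9 tested genes were positive with a median of 0.20, and the defining marker Zbtb46 was at -0.51 (SE 0.46) and Xcr1 at 0.03 (SE 0.48). In counts, Zbtb46 had 5 to 64 in KO and 13 to 105 in WT libraries and Xcr1 9 to 46 in KO and 11 to 70 in WT libraries, while Flt3 was at 0 in 1, Itgax in 2 and Clec9a in 5 of 12 libraries. Treg genes summed to 6736 ± 500.3 CPM in KO and 6191 ± 559 CPM in WT libraries (exact permutation p = 0.115). For the average 0 of 10 passed, with 6 of 10 positive and a median of 0.06. Cd3e (0.47, edgeR adjusted p = 0.0765) and Cd3d (0.28, adjusted p = 0.211) had the smallest p. The negative ones were Foxp3 at -0.06 (SE 0.14), Il2ra at -0.11 (SE 0.17), Ikzf2 at -0.13 (SE 0.33) and Ctla4 at -0.11 (SE 0.11).

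Plasmacytoid dendritic cells hold much Irf7, so their markers were set beside it. Their summed level was 265 ± 24.4 CPM in KO and 243 ± 16.7 CPM in WT libraries (exact permutation p = 0.0974), of which Pacsin1 made up 43.3% and Bst2, itself an ISG, 22.6%. Irf7 had r = 0.90 and rho = 0.89 with this sum (permutation p = 0.00017 and 0.00028, adjusted 0.00646 and 0.0156), and r = 0.81 without the 2 farthest libraries. With Bst2 left out, an alternative chosen after seeing the data, r was 0.34 and rho 0.14 (permutation p = 0.272 and 0.666). What remained was largely Pacsin1 and Ccr9. Of a mean sum of 198 CPM in KO libraries, Pacsin1 gave 101 and Ccr9 49.4. In WT libraries the sum was 195, with 119 from Pacsin1 and 46.7 from Ccr9. Pacsin1 had 883 to 1560 counts in KO and 1397 to 2377 in WT libraries, far above Siglech. This r thus cannot show the part of plasmacytoid dendritic cells in the Irf7 level, which was not tested. Siglech had 6 to 88 counts in KO and 5 to 104 counts in WT libraries and was at 0.23 (SE 0.57) for the average. Of the 8 tested genes 0 passed, with 6 of 8 positive and a median of 0.37. The smallest p belonged to Ly6d at 2.33 (SE 0.63, edgeR adjusted p = 0.0774) and Spib as given above. Pacsin1 at -0.22 (SE 0.10) and Runx2 at -0.24 (SE 0.21) were the negative ones. Irf4 had r = 0.80 and rho = 0.80 with the conventional dendritic cell sum (permutation p = 0.00236 and 0.00326, adjusted 0.0359 and 0.0496), but Itgae, the integrin CD103 that Tregs also carry, made up 96.0% of that sum. Without Itgae r was 0.33 and rho 0.47 (permutation p = 0.289 and 0.125).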

How the data were processed

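For 12 libraries, the authors deposited raw counts by gene symbol and log2 values covering 24584 genes. HISAT2 2.0.5 and Subread's featureCounts 1.5.0-p2 are named beside edgeR and GRCm38 in the submitters' processing notes. Per the labels' protocols, RNA came from the NucleoSpin XS kit, cDNA from SMART-Seq v4 and libraries from Nextera XT. The deposited log2 values matched log2 CPM recomputed with edgeR (TMM, prior count 0.25). Titles gave the groups. The number 2 stands on 2 WT male titles, kept as WT male 2 and WT male 3.

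The counts were fitted with edgeR 4.0.16 (R 4.3.3): filterByExpr, TMM, 1 robust quasi-likelihood model of the 4 groups, two-sided tests, Benjamini-Hochberg over 13692 genes. SE came from the F statistic. limma 3.58.1 and DESeq2 1.42.0 served as alternatives. Counting error alone would leave a gene at 0 counts with up to 0.294 CPM in the shallowest library (3 counts). Correlations used 100000 permutations. Steps were tested on simulated counts. Members, lists and tests were chosen with earlier results of these data known. The comparisons of single ISGs, of coefficients of variation and of sums without Bst2 or Itgae were added after seeing the data. Named genes were the members, the 3 genes most like each, and per list up to 4 passing genes or the 2 with the smallest p for the average; some genes are not reported here.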

Additional observations from a re-analysis of the deposited data

Results flagged for a closer look

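Irf9 was higher in every KO female than in any WT female and lower in every KO male than in any WT male, so the groups moved in opposite directions in the titled sexes. Among all genes 9.20% were higher in this way in females and 7.45% lower in males. The share of genes that did both was not counted, so these shares do not show how unusual Irf9 is. In libraries with more Xist than Y-linked counts, whatever their title, Irf9 ran from 215 to 318 CPM in KO and from 241 to 252 CPM in WT. In those with more Y-linked counts it had 225 and 285 CPM in KO and 220 to 328 CPM in WT. The lack of overlap thus holds for the titled groups only. The difference of the effects was 0.70 on the log2 scale (edgeR interaction, unadjusted p = 0.00355, adjusted p = 0.90), which did not pass over all genes. It lay between 0.61 and 0.78 in 19 alternatives, with adjusted p from 0.209 to 1.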

How the results depend on the processing

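The count of members called was 0 in all 6 comparisons, and it stayed at 0 with RLE size factors, limma, the replicate block, WT male 2 and 3 summed, without the 4 libraries against their titled sex, and in every fit without 1 library (range 0 to 0 for each comparison). It was 1, always Irf7, with no filter on low counts for the KO effect averaged over the sexes, the KO effect in females, female minus male in WT and the interaction (adjusted p = 0.0348, 3.14e-06, 0.0016 and 7.86e-05), and 1 with DESeq2 for KO minus WT in females (adjusted p = 0.026). The cause was not tested. Over all genes, 206 passed for the average, 627 with no filter, 644 with DESeq2, 31 with WT male 2 and 3 summed, 14 without the 4 libraries, 9 with the replicate block and 12 to 543 without 1 library. In females 0 passed, 132 with no filter and 22 with DESeq2, and in males 10, 443 with no filter, 420 with DESeq2, 135 without the 4 libraries, 0 summed or with the replicate block, and 0 to 734 without 1 library. Female minus male gave 0 in KO, 63 with no filter, 5 without the 4 libraries and up to 324 without KO male 2. In WT it gave 0, 191 with no filter, 30 with DESeq2, 5 without the 4 libraries and up to 38 without WT female 3. The interaction gave 0, 106 with no filter, 3 with DESeq2 and up to 4 without KO male 2. Libraries sharing a title number did not deviate together (r from -0.39 to 0.13 over 18 pairs, 1 over 0.1), so the block is no pairing. A pseudocount of 0.25 moved r by at most 0.0012 and no exact test of a marker sum across 0.05. Prdm1 had an adjusted p of 2.29e-05 to 0.128 over the 19 alternatives, 0.116 with the replicate block. B-cell genes called for the average were 7, 11 with no filter or DESeq2, 2 with the replicate block, 3 with WT male 2 and 3 summed and 3 to 8 without 1 library. Leaving Bst2 or Itgae out of its sum lowered 2 relations, that of Irf7 to r = 0.34 and that of Irf4 to r = 0.33. With 3 libraries per group, a 95% interval of Irf4 from -0.60 to 0.21 shows the size that these data leave unresolved.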
